A study of Mus musculus with 8 samples.

Results

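The genes described here are the 35 genes of glucose uptake, glycolysis, lactate handling and the entry of pyruvate into mitochondria. They were picked by symbol. The rule uses no measured value, although the list was drawn up with earlier results of these data known. All 35 were found among the 52636 Ensembl gene identifiers of the deposited RNA-seq counts. All 35 also passed the filter on low counts, which left 15517 genes. The study compared E14 mouse embryonic stem cells that carry Klf4 (WT) with E14 cells in which Klf4, a zinc finger transcription factor gene, was knocked out (KLF4-KO, here KO). RNA-seq gave 2 libraries per genotype. HiChIP, which joins DNA ends that lie close together in the nucleus and then enriches the fragments bound by 1 protein, was done for RNA polymerase II and is available as 1 pool per genotype. Both genotypes were cultured on gelatin without mention of feeder cells, and the labels give both of 2 media for every sample. Each contains 15% serum. The first adds 10 ng/mL LIF, the MEK inhibitor PD0325901 at 1 µM and the GSK3 inhibitor CHIR99021 at 3 µM, and the second adds 1000 U/mL LIF. Which medium a library came from, and whether the KO libraries, named B and F, stem from 1 edited clone or from several, is not known from the sources used here. The p-values therefore measure the spread between these libraries.

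Gene reads numbered 8287497 to 9762190 per library. Klf4 had 2882 and 2421 reads in WT and 0 in both KO libraries. All 10 stem cell markers examined were detected, with a summed level of 6681 to 8688 CPM (counts scaled to library size with TMM factors) in WT and 7933 to 8392 CPM in KO. Fibroblast or feeder markers summed to 1798 to 2872 CPM in WT and 1054 to 1372 CPM in KO, with Postn at 0 in every library. Primitive endoderm markers summed to 186 to 257 CPM and 82.6 to 117 CPM with Afp at 0, trophoblast markers to 102 to 120 CPM and 82.7 to 156 CPM with Tpbpa at 0, neural markers to 54.2 to 58.8 CPM and 40.4 to 63.8 CPM with Dcx at 0, and mesoderm markers to 10.7 to 15.1 CPM and 8.05 to 10.2 CPM with Msgn1 at 0. The sums hide single markers that passed the edgeR threshold. Higher in KO were Dppa4 and Utf1 of 10 tested stem cell markers, Pax6 and Map2 of 5 neural ones, Gata6 and Col4a1 of 5 of primitive endoderm and Hand1 of 6 of trophoblast. Lower were Nes (neural), Lama1 (primitive endoderm) and Gsc (mesoderm, 3 tested). Neither DESeq2 nor limma voom called a trophoblast marker, and limma voom called no mesoderm marker. None of 5 tested fibroblast or feeder markers made a call with edgeR or limma voom, while DESeq2 called 1 lower, and 3 had an unadjusted edgeR p under 0.05. The Y-linked gene Eif2s3y had 845 and 769 reads in WT and 0 in both KO libraries, and Ddx3y, Uty and Kdm5d were also at 0 in KO. The loss of Klf4 and any other difference between the WT and KO cells cannot be told apart, and the part of the marker levels in the results below was not tested.

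Glycolysis splits glucose into pyruvate in the cytosol. Pyruvate is then either reduced to lactate and exported, or carried into the mitochondrion, where the pyruvate dehydrogenase complex turns it into acetyl-CoA and pyruvate carboxylase turns it into oxaloacetate. Pyruvate dehydrogenase kinases switch the complex off. Cultured pluripotent cells are known for a high rate of glycolysis, and many of these genes are known targets of the hypoxia-inducible factors and of MYC.

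Of the 35 genes, 12 were higher in KO and 1 was lower, whereas 22 made no call (edgeR quasi-likelihood test, false discovery rate (FDR) of 0.05 over all tested genes). Among all 15517 tested genes, 2.96% were called higher and 5.34% lower. The higher genes were Slc2a1, Pfkl, Aldoc, Tpi1, Gapdh, Pgk1, Pgam1, Eno1, Pkm, Ldha, Pdk1 and Pcx, and the lower gene was Hk1. At an unadjusted p of 0.05 the counts were 17 higher and 3 lower, against 10.2% and 14.2% of all tested genes. The median log2 fold change of the 35 genes was 0.59, beside -0.001 over all tested genes. For 24 of the 35 genes both KO libraries lay above both WT libraries, in 4 both lay below, and in 7 the genotypes overlapped. Over all tested genes, 26.0% lay above and 27.5% below. In bulk RNA, fewer cells of a kind and less RNA per cell cannot be told apart.

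Read as a pathway, 8 of the 10 enzymatic steps of glycolysis had at least 1 gene called higher, the aldolase step through Aldoc and not through Aldoa. The 2 steps without one were hexokinase and phosphoglucose isomerase, the entry steps. The 35 genes together took 0.932% and 0.908% of gene reads in WT replicates 1 and 2 and 1.97% and 1.69% in the KO libraries (B first, then F, here and below). The 12 higher genes alone went from 0.329% and 0.353% to 1.23% and 1.05%, while the other 23 held 0.603% and 0.555% in WT and 0.741% and 0.641% in KO. KO library B stood above library F in 11 of the 12 higher genes, with Pdk1 as the exception, and in 50.3% of all tested genes. Within WT, replicate 2 stood above replicate 1 in 10 of the 12 higher genes and in 50.1% of all tested genes. Without library B, 7 of the 35 genes were called higher in edgeR and none lower, and without library F, 9 higher and none lower.

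**Figure D1:**
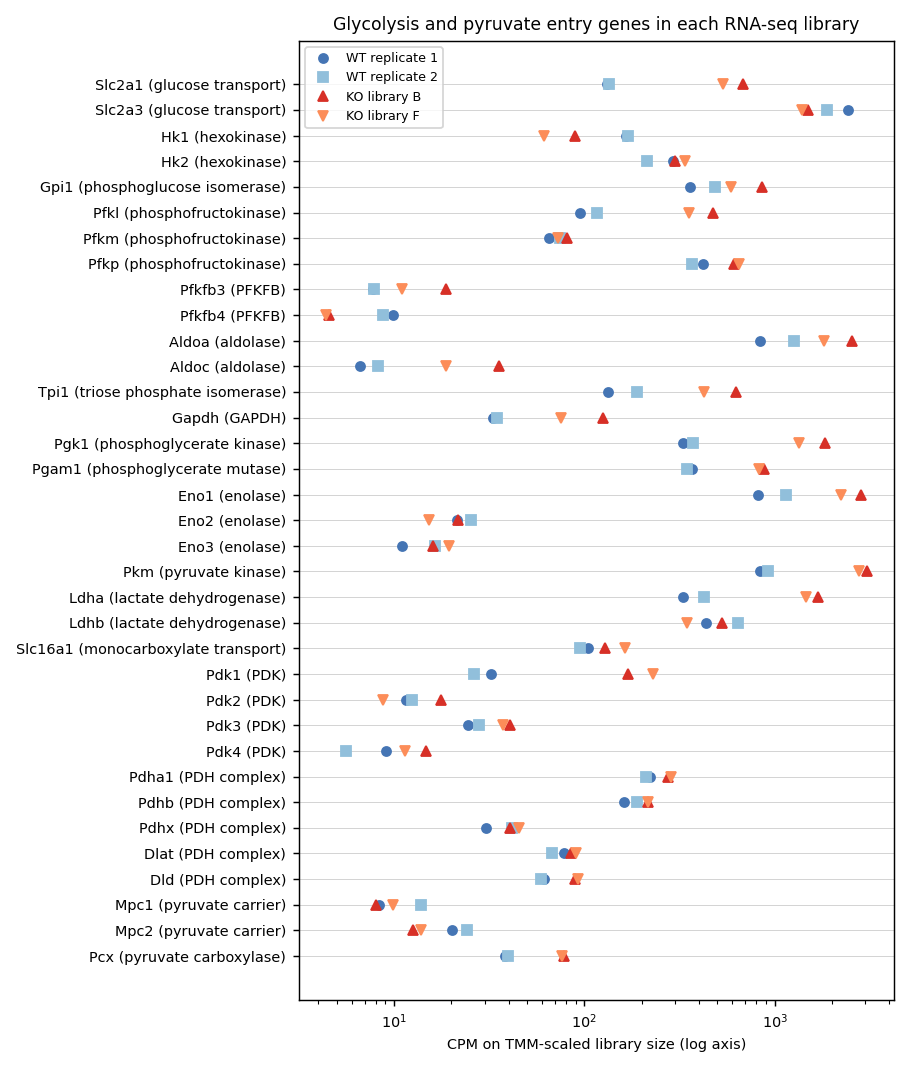
Level of each of the 35 genes in each RNA-seq library, as CPM on a log axis, with 1 point per library and genes ordered along the pathway. Both KO libraries lie to the right of both WT libraries for 24 genes and to the left for 4 (Slc2a3, Hk1, Pfkfb4 and Mpc2).

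The bases just upstream of a start site are shown for the 4 genes with the largest called rises (Pdk1, Slc2a1, Pgk1 and Ldha), for Pfkl, and for the 1 gene that fell, Hk1. Each is the 250 bases before a RefSeq start (GRCm38.p6, the mm10 build), 5′ to 3′ on the strand of the gene. The positions are chr2:71872974-71873223 (plus strand) for Pdk1, chr4:119108495-119108744 (plus) for Slc2a1, chrX:106186850-106187099 (plus) for Pgk1, chr7:46845554-46845803 (plus) for Ldha, chr10:78009808-78010057 (minus) for Pfkl. Hk1 has 2 listed starts and is shown for both, at chr10:62379909-62380158 and chr10:62340422-62340671 (minus). Where Ldha and Pdk1 have a further listed start, the first is shown. Capitals mark ACGTG or GCGTG on either strand, the core letters of the hypoxia response element.
Pgk1: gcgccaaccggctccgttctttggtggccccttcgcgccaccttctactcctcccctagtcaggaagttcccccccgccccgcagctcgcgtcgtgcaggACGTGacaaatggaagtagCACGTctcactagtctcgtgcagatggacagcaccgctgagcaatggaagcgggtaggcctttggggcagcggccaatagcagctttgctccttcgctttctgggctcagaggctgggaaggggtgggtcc
Ldha: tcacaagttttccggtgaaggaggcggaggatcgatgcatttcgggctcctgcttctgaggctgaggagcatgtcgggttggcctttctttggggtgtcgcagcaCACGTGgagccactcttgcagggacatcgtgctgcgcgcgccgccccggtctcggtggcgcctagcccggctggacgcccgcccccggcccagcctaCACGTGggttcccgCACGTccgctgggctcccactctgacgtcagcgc
Slc2a1: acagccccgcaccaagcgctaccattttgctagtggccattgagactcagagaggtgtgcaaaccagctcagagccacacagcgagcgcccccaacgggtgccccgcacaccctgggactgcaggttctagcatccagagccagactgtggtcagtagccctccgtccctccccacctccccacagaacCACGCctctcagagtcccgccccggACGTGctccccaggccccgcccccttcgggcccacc
Pdk1: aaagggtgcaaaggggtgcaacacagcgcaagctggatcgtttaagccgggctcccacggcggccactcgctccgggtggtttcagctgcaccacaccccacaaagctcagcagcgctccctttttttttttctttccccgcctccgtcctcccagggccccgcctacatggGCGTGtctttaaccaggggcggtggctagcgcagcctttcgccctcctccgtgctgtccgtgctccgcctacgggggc
Pfkl: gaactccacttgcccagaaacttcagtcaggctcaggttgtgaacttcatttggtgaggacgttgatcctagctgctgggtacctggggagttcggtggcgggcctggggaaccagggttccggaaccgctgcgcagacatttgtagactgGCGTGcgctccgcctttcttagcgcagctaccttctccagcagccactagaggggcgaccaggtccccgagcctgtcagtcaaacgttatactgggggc
Hk1, first start: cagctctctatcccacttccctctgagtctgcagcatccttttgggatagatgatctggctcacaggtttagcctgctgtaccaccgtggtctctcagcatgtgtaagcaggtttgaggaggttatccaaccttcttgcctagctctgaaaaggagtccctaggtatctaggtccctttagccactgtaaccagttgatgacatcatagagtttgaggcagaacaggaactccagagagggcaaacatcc
Hk1, second start: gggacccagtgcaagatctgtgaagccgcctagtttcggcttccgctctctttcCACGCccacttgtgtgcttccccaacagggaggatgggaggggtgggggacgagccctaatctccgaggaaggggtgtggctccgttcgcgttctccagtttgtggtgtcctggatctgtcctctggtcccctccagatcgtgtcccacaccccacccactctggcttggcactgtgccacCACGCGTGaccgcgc
Pgk1 held 2 such matches in this stretch, Ldha 5, Slc2a1 2, Pdk1 1 and Pfkl 1. Hk1 held 0 before its first start and 3 before its second, so the gene that fell holds these letters too. The further starts of Ldha and Pdk1 had 1 and 0. The letters CACGTG hold ACGTG on both strands and count as 2. Over the windows from 250 bases before to 50 after every listed start, searched on both strands, ACGTG was present in 17 of the 34 genes with an entry (50%), against 29.1% of 10763 tested genes and 21.8% of all 27025 genes in the table. GCGTG was present in 23 (67.6%, against 55.5% and 35.2%). GGGNGTG, a KLF-type motif that can overlap GCGTG, was present in 22 (64.7%, against 41% and 31.9%). Of the 12 higher genes, 8 held ACGTG, 8 GCGTG and 8 GGGNGTG (66.7% for each), and 4 held all 3. Of the 22 others the shares were 40.9%, 68.2% and 63.6%. A match describes these letters and is not evidence of a bound factor. Slc2a3 has no listed start and is named only.

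Slc2a1 and Slc2a3 encode GLUT1 and GLUT3, facilitative transporters that let glucose into the cell. Slc2a1 (chromosome 4, 119108745 to 119137330) measured 131 and 135 CPM in WT replicates 1 and 2 and 679 and 532 CPM in KO. The KO libraries were both far above WT, and the rise was 4.55-fold (log2 fold change 2.19, 95% interval 1.59 to 2.78, edgeR FDR 0.00386). Slc2a3 (chromosome 6, 122727809 to 122802363) measured 2419 and 1873 CPM in WT and 1493 and 1387 CPM in KO. Its KO libraries were the 2 lowest without a call (log2 fold change -0.57, 95% interval -1.22 to 0.07, edgeR FDR 0.257).

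The first step, the phosphorylation of glucose, was the only one with a called fall. Hk1, the hexokinase gene active in most tissues (chromosome 10, 62268855 to 62379920), measured 166 and 170 CPM in WT and 89.5 and 61.6 CPM in KO. Both KO libraries were below WT, a 2.22-fold fall (log2 fold change -1.15, 95% interval -1.75 to -0.55, edgeR FDR 0.034). Leaving out library B (edgeR FDR 0.07) or F (0.4) ended the call. Hk2, the inducible hexokinase gene, measured 292 and 213 CPM in WT and 299.6 and 336 CPM in KO, with no call (log2 fold change 0.33, edgeR FDR 0.478). Gpi1, which encodes phosphoglucose isomerase, was at 359 and 485 CPM in WT and 853 and 587 CPM in KO and made no call either (edgeR FDR 0.156).

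Phosphofructokinase carries out the committed step, and its 3 genes did not move alike. Pfkl, the liver-type subunit gene (chromosome 10, 77986947 to 78009807), measured 94.7 and 116 CPM in WT and 475 and 353 CPM in KO. It rose 3.93-fold (log2 fold change 1.97, 95% interval 1.36 to 2.59, edgeR FDR 0.0063), with no overlap between genotypes. Pfkp, the platelet-type subunit gene, was at 419 and 369 CPM in WT and 610.1 and 651 CPM in KO (edgeR FDR 0.134), with KO above WT but no call. Pfkm, the muscle-type gene, overlapped between genotypes (65.4 and 74.4 CPM in WT, 80.7 and 72.7 CPM in KO). Pfkm lies over Senp1 and Pfkp over Pitrm1 in the annotation, so their reads are less certain. The bifunctional enzymes encoded by Pfkfb3 and Pfkfb4 set the level of fructose 2,6-bisphosphate, an activator of phosphofructokinase. Pfkfb3 was at 7.76 and 7.83 CPM in WT and 18.7 and 11.0 CPM in KO (edgeR FDR 0.18). Pfkfb4 went the other way, with 9.88 and 8.70 CPM in WT and 4.55 and 4.38 CPM in KO (edgeR FDR 0.134). Neither passed.

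The steps from aldolase to glyceraldehyde-3-phosphate dehydrogenase split and oxidise the sugar. Aldoa, the main aldolase gene, measured 841 and 1266 CPM in WT and 2556.5 and 1827 CPM in KO, with KO above WT and no call (log2 fold change 1.06, 95% interval 0.31 to 1.80, edgeR FDR 0.088). It was called higher with DESeq2 (adjusted p 0.012) and without WT replicate 2 (edgeR FDR 0.011). Aldoc, the brain-type aldolase gene, rose 3.65-fold from 6.59 and 8.27 CPM to 35.6 and 18.7 CPM (edgeR FDR 0.0269), a call that ended when library B was left out (0.11). Tpi1, for triose phosphate isomerase (chromosome 6, 124810586 to 124814158), measured 133 and 189 CPM in WT and 623 and 424 CPM in KO. Both KO libraries were well above WT, a 3.26-fold rise (95% interval of the log2 fold change 1.01 to 2.40, edgeR FDR 0.0147). Gapdh, for the dehydrogenase itself (chromosome 6, 125161852 to 125166467), had 312 and 321 reads in WT and 1048 and 638 in KO. On the CPM scale this was 33.2 and 34.9 in WT and 126 and 75.6 in KO, a 2.95-fold rise (edgeR FDR 0.0196) whose call ended when library B was left out (0.13). Gapdh has many near-identical pseudogene copies, and reads with several alignments, 17.5% to 18.9% of the records, are not in the counts. Its absolute level is therefore uncertain.

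The later steps, among them those that make ATP, each had a gene that rose. Pgk1, for phosphoglycerate kinase (chromosome X, 106187100 to 106203699), measured 331 and 370.0 CPM in WT and 1835 and 1343 CPM in KO. The gap between genotypes was far wider than that within them, a 4.53-fold rise (log2 fold change 2.18, 95% interval 1.51 to 2.85, edgeR FDR 0.00568). Pgam1, for phosphoglycerate mutase, measured 367 and 346 CPM in WT and 875 and 828 CPM in KO. It rose 2.39-fold (edgeR FDR 0.0209), and leaving out library B (0.13) or F (0.11) ended the call. Eno1, the ubiquitous enolase gene (chromosome 4, 150236708 to 150248879), measured 822 and 1140.1 CPM in WT and 2827 and 2221 CPM in KO. It rose 2.57-fold (edgeR FDR 0.0324), and its call also ended when library B (0.17) or F (0.066) was left out. The neuronal gene Eno2 and the muscle gene Eno3 overlapped between genotypes, at 15.3 to 25.3 CPM and 10.9 to 19.3 CPM over the 4 libraries. Pkm, for the pyruvate kinase that ends glycolysis (chromosome 9, 59656576 to 59679372), measured 836 and 920.0 CPM in WT and 3069.9 and 2777 CPM in KO. This was a 3.33-fold rise (95% interval of the log2 fold change 1.10 to 2.37, edgeR FDR 0.0107). Gene counts do not separate the M1 and M2 splice forms of Pkm.

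Lactate dehydrogenase turns pyruvate into lactate as a tetramer of A and B subunits. Ldha, for the A subunit (chromosome 7, 46842274 to 46855627), measured 328 and 426 CPM in WT and 1689 and 1463 CPM in KO, a 4.18-fold rise (log2 fold change 2.06, 95% interval 1.41 to 2.72, edgeR FDR 0.00645). The KO libraries lay close together and far above WT. Ldhb, for the B subunit, overlapped between genotypes, with 435 and 640 CPM in WT and 526 and 344 CPM in KO (edgeR FDR 0.599). Slc16a1, for the lactate and pyruvate transporter MCT1, was at 104 and 95.1 CPM in WT and 128 and 163 CPM in KO, without a call (edgeR FDR 0.21).

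At the mitochondrial gate, the kinase gene Pdk1 had the largest log2 fold change of the 35 genes, whereas none of the genes for the complex it inhibits passed. Pdk1 (chromosome 2, 71873215 to 71903858) measured 32.1 and 26.4 CPM in WT and 169 and 229.5 CPM in KO. Both KO libraries stood far above WT, a 6.80-fold rise (log2 fold change 2.77, 95% interval 2.13 to 3.40, edgeR FDR 0.00249). Pdk3 and Pdk4, further kinases of the family, had KO above WT with no call (log2 fold changes 0.58 and 0.84, edgeR FDR 0.223 and 0.233), and Pdk2 overlapped. The subunit genes Pdha1, Pdhb, Pdhx, Dlat and Dld had folds of 1.19 to 1.51, all upward, with edgeR FDR between 0.162 and 0.62. None passed in DESeq2 or limma voom either, and 1, Dld, had an unadjusted p under 0.05. Pdha1, for the catalytic alpha subunit, was at 221 and 210.4 CPM in WT and 276 and 284 CPM in KO. The count ratio of Pdk1 to Pdha1 was 0.145 and 0.126 in WT and 0.610 and 0.81 in KO, a 5.20-fold change.

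Genes of the mitochondrial pyruvate carrier did not pass, and pyruvate carboxylase rose. Mpc2 was at 20.2 and 24.3 CPM in WT and 12.6 and 13.9 CPM in KO (edgeR FDR 0.176), with KO below WT, and its partner Mpc1 overlapped between genotypes. Pcx, the gene of pyruvate carboxylase (chromosome 19, 4510472 to 4621752), measured 38.3 and 39.5 CPM in WT and 78.0 and 76.0 CPM in KO. Replicates lay close together in both genotypes, and the rise was 1.98-fold (log2 fold change 0.99, 95% interval 0.44 to 1.54, edgeR FDR 0.0426). The edgeR FDR was 0.25 when library B was left out and 0.23 when library F was, so the call ended in both cases.

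**Figure D2:**
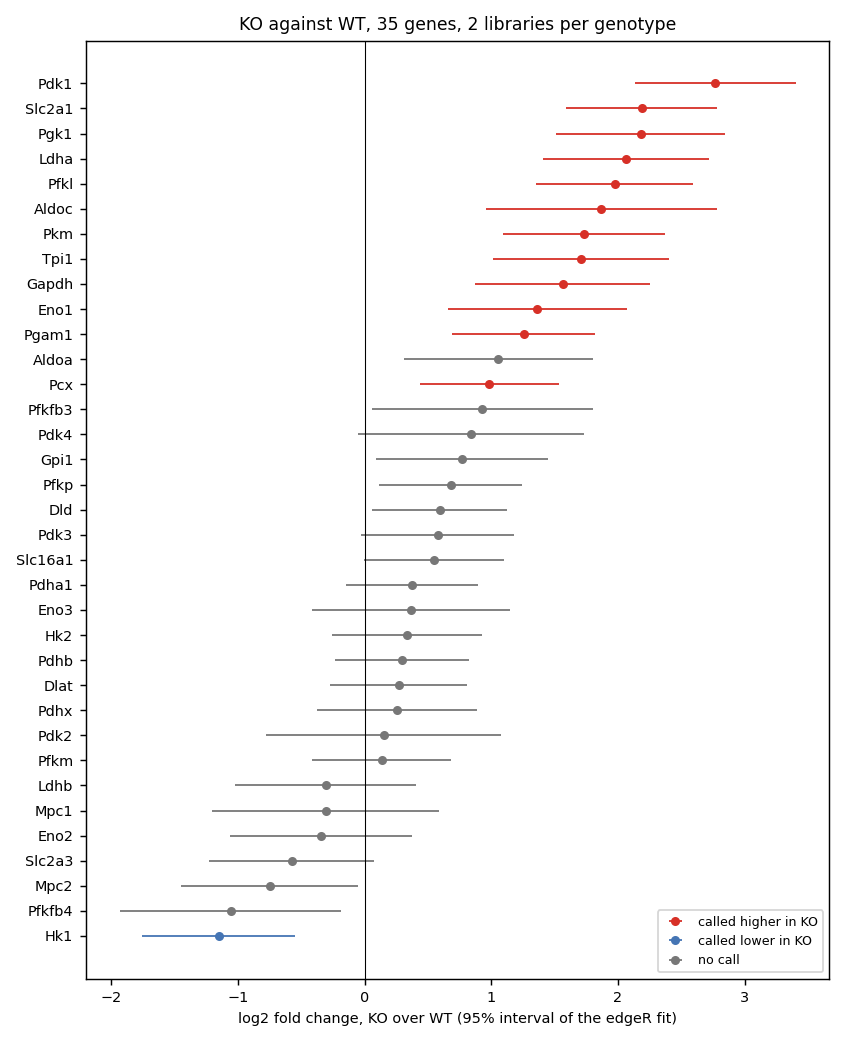
Log2 fold change of KO over WT for each of the 35 genes, sorted by size, with the 95% interval of the edgeR fit over 2 libraries per genotype. Red points are called higher, the blue point is called lower and grey points made no call. Pdk1 is at the top with 2.77 and Hk1 at the bottom with -1.15.

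For the 8 steps with several genes, 1 gene per step is named here. It is the gene whose share of the step's reads was higher in both KO libraries than in both WT libraries. Shares in a step add up to the whole, so a rise of 1 gene comes with a fall of another. The direction common to the 8 genes therefore comes from this choice. On the CPM scale, both KO libraries lay above both WT libraries for 26.0% of all tested genes and below for 27.5%. The shares are of raw reads, not of molecules, since longer transcripts give more reads. With 2 libraries against 2, an exact two-sided permutation test cannot go below p = 0.333, and all 8 shifts below gave that value. Slc2a1 supplied 5.15% and 6.70% of the reads of the 2 glucose transporter genes in WT and 31.3% and 27.7% in KO. Hk2 supplied 63.8% and 55.6% of the hexokinase reads in WT and 77.0% and 84.5% in KO. In both steps the KO libraries lay above WT, by 23.6 and 21.1 points on average. Pfkl supplied 16.4% and 20.8% of the phosphofructokinase reads in WT and 40.7% and 32.8% in KO. Pfkfb3 supplied 44.0% and 47.4% of the reads of its pair in WT and 80.4% and 71.5% in KO, on 37 to 156 reads per gene and library. The shift at the lactate step was the largest in points. Ldha supplied 43.0% and 40.0% of the lactate dehydrogenase reads in WT and 76.3% and 81.0% in KO, so the gene with more reads was Ldhb in WT and Ldha in KO. Pdk1 supplied 41.7% and 36.5% of the kinase reads in WT and 69.8% and 79.9% in KO. Among their listed genes, the aldolase and enolase steps moved little, because 1 gene held nearly all reads in every library. The enolase total leaves out Eno1b, a copy of Eno1 with 0.417 to 0.462 of its reads. Aldoc went from 0.777% and 0.649% to 1.37% and 1.01%, and Eno1 from 96.2% and 96.5% to 98.7% and 98.5%. Ratios of reads between a pair of genes, in which transcript length cancels, changed 6.68-fold for Slc2a1 over Slc2a3, 5.22-fold for Ldha over Ldhb, 2.88-fold for Hk2 over Hk1 and 2.44-fold for Pfkl over Pfkp.

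**Figure D3:**
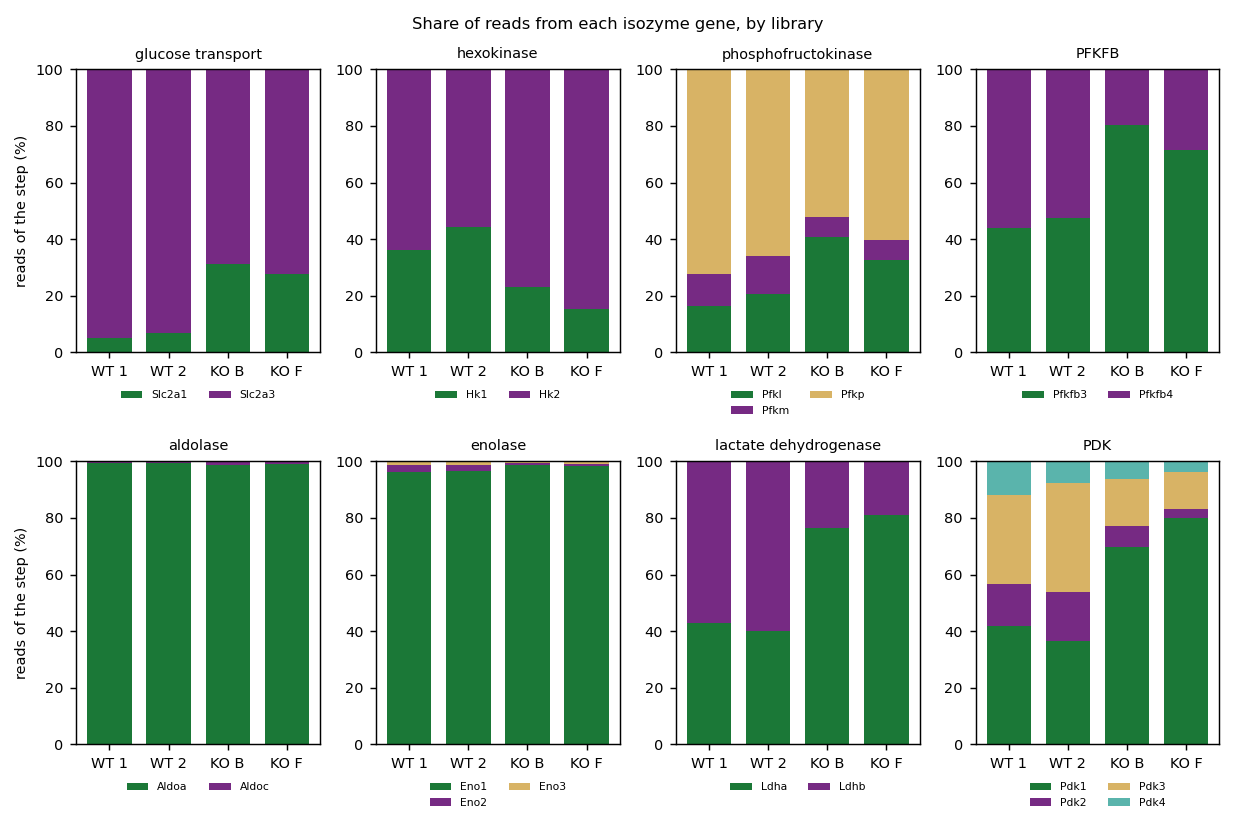
Percent of the reads of a step that came from each of its genes, by library, for the 8 steps with more than 1 gene. Eno1b, a copy of Eno1, is not counted in the enolase step. In glucose transport, hexokinase, phosphofructokinase, the PFKFB pair, lactate dehydrogenase and the PDK family the stacked bars of both KO libraries differ from both WT libraries, while aldolase and enolase are filled almost wholly by Aldoa and Eno1.

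Several members have close copies elsewhere in the genome, named after them in the annotation. Eno1b, an intronless copy of Eno1 on chromosome 18, had 3275 and 4842 reads in WT and 10329 and 7822 in KO and was called higher (2.47-fold, edgeR FDR 0.0383). Its reads stood at 0.417 to 0.462 of those of Eno1 in every library. The copies Pgk1-rs7 (6.01-fold, edgeR FDR 0.0223) and Ldha-ps2 (5.15-fold, edgeR FDR 0.0121) were also called higher, on 7 to 58 and 23 to 140 reads per library. Pgam1-ps2 made no call (1.93-fold, edgeR FDR 0.199). Mpc1-ps made none either and had a log2 fold change of 0.47, whereas that of Mpc1 was -0.31. Whether reads were split between these genes and their parents was not tested, so both counts are uncertain.

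Genes around the pathway were read from 7 further lists. Slc16a3, for the lactate exporter MCT4, went from 5.21 and 8.38 CPM in WT to 141 and 117 CPM in KO, a 19.0-fold rise (log2 fold change 4.25, edgeR FDR 0.00117). Among 23 tested of 31 other isozyme and accessory genes it was the only call upward, and Tigar, for a fructose bisphosphatase, was the only one downward (1.92-fold). The Tigar call was lost with library totals only (edgeR FDR 0.051) and without KO library B (0.31) or F (0.36). None of 11 tested pentose phosphate genes passed in edgeR, DESeq2 or limma voom, with 1 at an unadjusted p of 0.05 in each. In glycogen and gluconeogenesis genes 1 of 16 rose, Pgm1 for phosphoglucomutase (4.17-fold), and 1 fell, Pck2 for the mitochondrial phosphoenolpyruvate carboxykinase (3.70-fold). Of 22 genes of side branches, Gpd2, for the mitochondrial glycerol phosphate dehydrogenase (3.03-fold), and Gfpt2, of the hexosamine pathway (2.62-fold), rose, and Me1, for malic enzyme, fell 2.24-fold. Without KO library B the Gfpt2 call was lost (edgeR FDR 0.15), as was that of Me1 (0.21, and 0.16 without KO library F). Of 22 tricarboxylic acid cycle genes none rose in edgeR, DESeq2 or limma voom, also at an unadjusted p of 0.05, and 2 fell in edgeR (4 in DESeq2). These were Sucla2, for a subunit of succinyl-CoA synthetase (3.19-fold), and Idh1, for the cytosolic isocitrate dehydrogenase (2.02-fold). The Idh1 call was lost with library totals only (edgeR FDR 0.057) and without KO library B (0.35) or F (0.2).

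Hypoxia-responsive genes outside glycolysis had 5 of 29 higher and 2 lower (median log2 fold change 0.28). Bnip3, for a mitophagy receptor, went from 9.56 and 11.5 CPM to 242 and 175 CPM. Egln3, for an oxygen-sensing prolyl hydroxylase, rose 5.93-fold, and P4ha1, for a collagen prolyl hydroxylase, 2.91-fold though not when library B was left out (edgeR FDR 0.052). Ak4, for a mitochondrial adenylate kinase, went the other way and fell 3.30-fold. Known or proposed regulators of these genes had 6 of 27 higher and 1 lower (median 0.41). Myc went from 1.49 and 2.61 CPM to 15.1 and 35.1 CPM, Mycn rose 2.67-fold, and the let-7 inhibitors Lin28a and Lin28b rose 4.05-fold and 5.91-fold. Mycl, of the same family as Myc and Mycn, was the 1 lower gene. Without the filter on low counts its log2 fold change was -1.56, with no call (edgeR FDR 0.12). The Mycl call ended when library B was left out (log2 fold change -1.37). Of the hypoxia-inducible factor subunit genes, singled out after their values were seen, Epas1 rose 3.17-fold and Hif3a 3.54-fold. Arnt, a further subunit gene of the list, was not among the called genes. The Epas1 call ended when library F was left out (edgeR FDR 0.065). Hif1a stood at 57.5 and 76.7 CPM in WT and 117 and 74.9 CPM in KO without a call (edgeR FDR 0.527). The level of the protein was not measured.

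**Figure D4:**
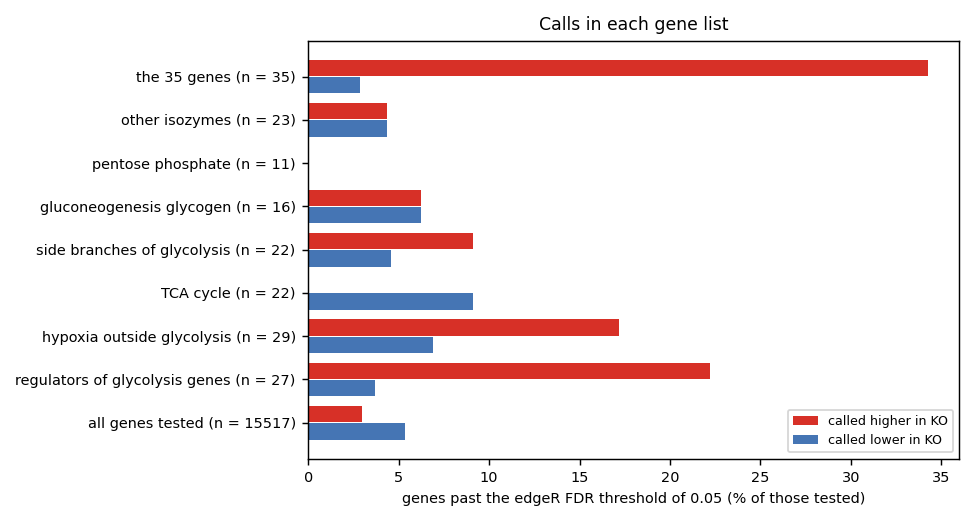
Percent of tested genes called higher (red) or lower (blue) in KO at an edgeR FDR of 0.05, for the 35 genes, the 7 other gene lists and all tested genes, with the number tested in brackets. The bars of the 35 genes are 34.3% and 2.86%, beside 2.96% and 5.34% for all 15517 genes.

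Contacts in the RNA polymerase II HiChIP were read from counts of paired-end tags (PETs) between listed anchors. The WT pool listed 35189 PETs over 19914 pairs and 19.0 Mb of anchors, at 1.77 PETs a pair, and the KO pool 401726 PETs over 118475 pairs and 67 Mb, at 3.39 PETs a pair. With 1 pool per genotype there is no test. Intervals cover counting error, and the pools differ in depth and in how much was listed. An anchor lay within 2500 bp of a start for 26 of the 34 genes with a listed start in WT and for 28 in KO. Among all genes with a listed start the shares were 24.4% and 36.5%, and among those tested by RNA-seq 51.8% and 74.1%. The anchor was in both pools for 23 genes, in KO only for Hk1, Pgk1, Pdk3, Mpc1 and Pcx, in WT only for Pfkp, Aldoc and Pdhx, and in neither for Eno2, Ldhb and Pdk2.

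PETs at the starts of these genes were 296 of the WT pool, or 0.841% (exact binomial 95% interval 0.748 to 0.942), and 1789 of the KO pool, or 0.445% (0.425 to 0.466). Starts of all genes tested by RNA-seq also held a smaller share in KO, 72.5% in WT and 56.8% in KO. The 12 genes with higher RNA took 0.460% of the WT pool and 0.220% of the KO pool, and the other 22 took 0.381% and 0.225%. The share of PETs at the higher genes was thus lower in the KO pool, while their RNA was higher. Among the 34 genes with a listed start, Aldoa had the most PETs, 65 in WT and 402 in KO. Next in KO were Pkm with 31 and 178, and Eno1 with 34 and 176. Eno3 with 20 and 166 and Gapdh with 37 and 162 followed. Slc2a3 has no listed start and is not in this ranking. Anchors within 2500 bp of its whole annotated span held 169 PETs in WT and 851 in KO. The Eno3 start lies next to Pfn1, so its PETs cannot be assigned to 1 gene. In both pools the anchors counted for Aldoa also cover the far end of that gene. The Aldoa PETs therefore cannot be assigned to its start alone. Among the genes with the largest RNA rises, Slc2a1 had 15 and 111 PETs, Pdk1 5 and 44, Ldha 5 and 31, and Pgk1 none listed in WT and 4 in KO.

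**Figure D5:**
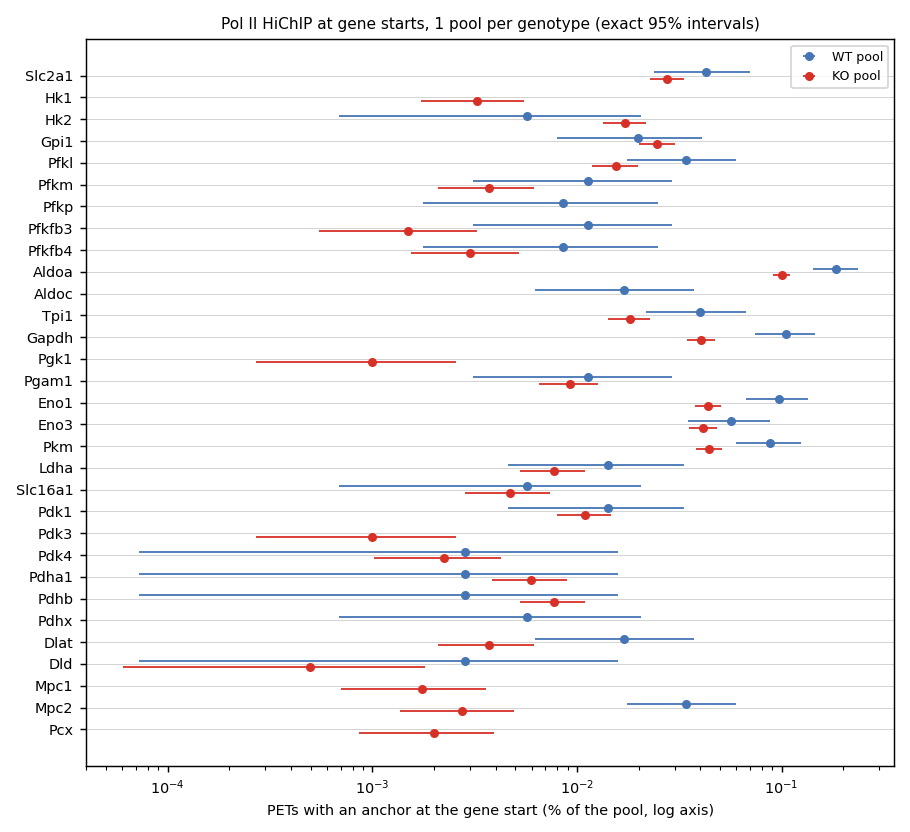
Share of each pool's PETs with an anchor within 2500 bp of the start of each gene, in percent on a log axis, with exact binomial 95% intervals that cover counting error only. A gene with no point for a pool had no listed anchor there. Of the genes shown, Aldoa has the highest share in both pools, 0.185% in WT and 0.1% in KO. The anchors counted for Aldoa also cover the far end of that gene. Slc2a3 has no listed start and is not shown.

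Most contacts from these starts were thin, as were most pairs of both pools. Over all listed pairs, those within 1 anchor included, 5043 of 19914 in WT and 41849 of 118475 in KO had at least 2 PETs. Pairs within 1 gene's own start anchors were left out. Pairs were counted gene by gene, so the pair of Tpi1 and Gapdh counts under both genes. This gave 134 pairs with 195 PETs in the WT pool, of which 111 pairs had 1 PET. The KO pool had 455 pairs with 1153 PETs, of which 319 had 1. The median span weighted by PETs was 159 kb in WT and 70.6 kb in KO, and 66.2% and 54.6% of these PETs ended at the start of another gene. The matching values over all pairs of the pools were not computed. Examples of pairs in KO follow, and other pairs with as many PETs are not named. The Eno3 start had 37 PETs with an anchor 8.0 kb away at the starts of Slc25a11 and Rnf167, and 30 with one 12.3 kb away at the start of Spag7. Gapdh had 26 PETs with an anchor 31.1 kb away at the starts of Ncapd2 and Mrpl51. The Pdk1 start (anchor chr2:71871125-71874934) had 16 PETs with a site 4.6 kb away (chr2:71867519-71869241). The Slc2a1 start (chr4:119107890-119110930) had 16 PETs with an anchor 36.0 kb away at the start of Gm35510 and 13 PETs with one inside its own gene (chr4:119119776-119126704). The Pkm start had 18 and 17 PETs with 2 anchors inside the gene, 9.1 and 17.6 kb away. Hk2 had 20 PETs with an anchor 12.6 kb away inside the gene, and Ldha 10 PETs with a site 6.9 kb away. Aldoa, whose KO anchor also covers the far end of the gene, had 25 PETs with an anchor 17.9 kb away at the start of Ypel3. It had 21 with a site 14.1 kb away and 21 with an anchor 427.9 kb away that covers the starts of Tbc1d10b, Mylpf and Zfp553. In WT, the leading pair joined the Eno1 start to an anchor 11.2 kb away at the end of the gene, with 17 PETs. The pools share 1 contact between 2 members, Tpi1 and Gapdh on chromosome 6, with 1 PET in each pool. Their annotated spans lie 347.7 kb apart, with other genes between them.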

How the data were processed

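Gene expression in 4 RNA-seq libraries and RNA polymerase II contacts in 1 HiChIP pool per genotype were analysed. The deposited values are whole-number read counts per Ensembl gene and PET counts per anchor pair, neither normalised. Per the submitters' processing notes, the tools were HiC-Pro 2.11.4, HTSeq 0.9.1, HISAT2 2.1.0 and DESeq2 1.18.1, on mm10. For the annotation release, the strand setting and the loop caller, nothing is stated in the sources used here. Where genes on opposite strands overlap, their reads therefore cannot be separated.

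Records that name no gene were left out, so that gene reads were 34.5% to 36.0% of the records in each file. Symbols matched 52403 of 52636 identifiers. In R 4.3.3, edgeR 4.0.16 compared the genotypes (quasi-likelihood F-test on genotype alone, TMM scaling, filterByExpr), and p-values were adjusted by Benjamini-Hochberg over 15517 genes. With 2 residual degrees of freedom, the common biological coefficient of variation came to 0.257. The members and gene lists were chosen with earlier results of these data known. Named were all 35 members, up to 4 called genes with the smallest p in each other list, and Klf4. The hypoxia-inducible factor subunit genes, Mycl, the copies of members, the called markers and the Y-linked genes fall outside this rule and were chosen after their values were seen. Shares within a step were to be per length, but no exon lengths were at hand, so shares of raw reads were used. Gene positions, starts and upstream sequences are from RefSeq (GRCm38.p6), and anchors are given 1-based. Alternatives were DESeq2 1.42.0, limma voom 3.58.1, RLE size factors, library totals only, other filters, leaving out each library, other anchor windows, at least 2 PETs a pair and 1 motif strand.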

Additional observations from a re-analysis of the deposited data

How the results depend on the processing

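With no expression filter, 0 members were called higher and 0 lower in edgeR, with FDRs of the 13 called members between 0.075 and 0.15. Over all genes that setting made 2 calls, against 4021 genes at an unadjusted p of 0.05. For the 7 other lists it gave 0 higher and 0 lower, against 15 and 8. Leaving out a library gave 7 to 13 members higher and 0 to 1 lower, and 13 to 25 higher and 3 to 15 lower genes of the other lists. The last count was 15 without WT replicate 1, 14 without WT replicate 2, 3 without KO library B and 5 without KO library F. The 25 higher genes came without WT replicate 1. With library totals only, 5 genes of the other lists were lower. DESeq2 called 13 members higher. Slc2a1, Pfkl, Tpi1, Pgk1, Pkm, Ldha and Pdk1 kept their calls in all 9 other settings. Over the fits without 1 library, the log2 fold change of Pdk2 ranged from -0.44 (without KO library B, a reversal) to 0.58, and that of Mpc1 from -0.64 to 0.07 (without WT replicate 2, a reversal), none past the threshold. The share of PETs at member starts was 0.671% of the WT pool within 1000 bp of a start, and 1.15% and 0.686% of the WT and KO pools within 10000 bp. Counting only pairs of at least 2 PETs, 13 members had an anchor in WT. ACGTG was in 11 members on the annotated strand alone. The cause of these changes was not tested.

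No paired analysis was possible because the KO count columns are lettered (B and F) and have no replicate numbers. Shares per kilobase of exon were not run. Where a fit leaves 1 library in a genotype, its spread is assumed equal to that of the other genotype. Anchors within 2500 bp of the whole gene span, an alternative chosen after seeing the data, were present for 28 of 35 members in WT and 32 in KO.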
